A study of Mus musculus with 10 samples.

Results

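The Notch receptors, their ligands and 2 target genes were followed across 10 mouse tumors, of which 5 were sarcomatoid carcinomas, a spindle cell type, and 5 were adenocarcinomas. The genes were chosen by name: the receptors Notch1, Notch2, Notch3 and Notch4, the ligands Jag1, Jag2, Dll1 and Dll4, and the targets Hes1 and Hey1. All 10 genes had at least 1 probe on the array, and they were 10 of the 19505 genes that its probes could be matched to in RefSeq and held 14 of the 41174 probes measured. Each tumor was hybridised to 1 Agilent mouse array with a channel that the labels do not describe and that was read as a common reference RNA. Every value below is a log2 ratio of tumor over reference unless it is called a difference.

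In Notch signaling, a ligand of the Jagged or Delta-like family on one cell binds a Notch receptor on a neighboring cell. The bound receptor is cut by an ADAM protease and then by gamma-secretase, and its freed intracellular part enters the nucleus, joins the DNA-binding protein Rbpj and switches on genes such as Hes1 and Hey1, which encode repressors of transcription. In the mammary gland, the pathway is known for guiding luminal cell fate, and in blood vessels Dll4, Notch4 and Notch3 are known from endothelial and mural cells.

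The adenocarcinomas were primary mammary tumors (tumors 105, 131, 470, 17 and 85) of mice with the Pik3ca H1047R and Trp53 R270H alleles and MMTV-Cre. The sarcomatoid group held the mammary tumors 323, 307 and 594 and a lung tumor each of 323 and 307, which grew after cells of a line made from that mammary tumor were injected into the tail vein. According to the study's methods, one lung and mammary pair came from a tumor with both of these alleles, and the other from one that carried Pik3ca H1047R with MMTV-Cre and had gained a Trp53 R245H mutation on its own, and the fifth tumor was a primary with Trp53 R270H and MMTV-Cre alone. The labels do not say which pair is 323 and which is 307, and tumor 594 is the fifth only because it has no pair. Tumor 594 is labelled sarcomatoid carcinoma and the other 4 sarcomatoid adenocarcinoma. The sarcomatoid group therefore held 3 tumor origins, and genotype, passage through culture and site all differ within it and from the adenocarcinomas. In the mice in which the primary tumors arose, Cre was driven by the MMTV promoter, which is active mainly in mammary epithelium. A C57BL/6 background is stated for the mice with both alleles and for tail vein injections in general, and whether the injected mice carried Cre is not given in the sources used here. The ages of the mice are not given in the sources used here.

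Some facts of the whole series touch every value. The labels name only the dye Cy3, but red was read as the tumor and green as the reference because green varied less between arrays. If the label were right, every log2 ratio and difference below would change sign, while correlations between genes would not. The paper reports lower Krt18 and Epcam and higher Mrc1 and Itgam in the metastatic sarcomatoid tumors than in adenocarcinomas. With red read as tumor, their log2 differences ran in those directions, at -3.23, -2.32, 1.61 and 1.42. Between 52.3% and 83.0% of probes were well above background in red on an array. Per the file headers, 3 versions of the feature extraction protocol were in use: version 1 held tumor 323, version 2 held 307, 594, 105 and 470, and version 3 held both lung tumors, 131, 17 and 85. A difference between groups within version 3 therefore sets lung tumors alone against mammary adenocarcinomas. The 10 luminal epithelial markers averaged between 2.70 and 3.38 in 4 adenocarcinomas, between 1.20 and 1.55 in the mammary sarcomatoid tumors, and between -1.48 and -1.0 in the lung tumors. Adenocarcinoma 470 stood apart at -0.78, so its luminal markers went against its label, and results are also given without it. In both lung tumors, 11 lung epithelium markers averaged 0.08 and 0.16, inside the range of the mammary tumors (-0.03 to 0.35). Of the 11, only 2 were well above background in red on all arrays and 1 on none, so dim probes limit this check.

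Regulatory sequence is shown for the 2 receptors with the widest range between tumors, Notch2 and Notch3, whose group means differed in opposite directions. The sequences are the 250 bases before the transcript start in RefSeq (build GRCm38.p6), Notch2 at chr3:98013288-98013537 on the plus strand and Notch3 at chr17:32166891-32167140 on the minus strand, each written 5′ to 3′ on the gene's strand. Capitals mark the GC box GGGCGG on either strand.
Notch2: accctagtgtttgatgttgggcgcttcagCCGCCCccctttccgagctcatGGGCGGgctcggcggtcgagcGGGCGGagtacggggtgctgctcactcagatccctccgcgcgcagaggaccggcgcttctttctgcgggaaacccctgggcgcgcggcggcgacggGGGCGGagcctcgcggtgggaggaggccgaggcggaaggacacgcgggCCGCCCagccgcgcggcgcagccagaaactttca
Notch3: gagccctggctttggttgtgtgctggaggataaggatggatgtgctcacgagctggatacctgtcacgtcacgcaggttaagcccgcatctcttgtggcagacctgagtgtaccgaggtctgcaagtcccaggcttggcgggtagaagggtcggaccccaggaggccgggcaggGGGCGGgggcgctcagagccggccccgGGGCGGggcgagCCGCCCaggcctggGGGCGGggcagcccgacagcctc
The GC box was found 5 times in the Notch2 window and 4 times in the Notch3 window. Of the 32817 promoters in the table, 32.7% held it, as did 5 of the 9 windows of the 8 genes with an entry (Dll1 has 2 starts, Hes1 and Hey1 have no entry). The core of the site that Rbpj is known to bind, TGGGAA on either strand, was in none of the 9 windows and in 21.6% of all promoters, and its longer form CGTGGGAA was in 0.637%. The GC box was searched for after neither form was found.

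The 10 genes differed widely in how much they varied between tumors, as the plot of values by tumor shows. Hey1 had the widest range, 4.92 on the log2 scale (30.3-fold) from the lung tumor of 323 to adenocarcinoma 105. Notch3 spanned 4.27 (19.3-fold) between the same 2 tumors, Notch2 4.04 (16.4-fold), Jag1 3.56 (11.8-fold) and Dll1 3.43 (10.7-fold). Dll4 had the narrowest range, 1.30 (2.46-fold). The SD of Notch3 and of Hey1 over the 10 tumors was at or above that of 98.2% and 98.1% of all probes, dim probes included. Adenocarcinoma 105 was the highest tumor for 5 of the 10 genes (Notch1, Notch3, Jag2, Dll1 and Hey1), and the lung tumor of 323 was the lowest for 5 (Notch3, Notch4, Dll1, Hes1 and Hey1). Mammary tumor 323 was the lowest for 3 others and adenocarcinoma 131 for 2, so low values were found in both groups.

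**Figure D1:**
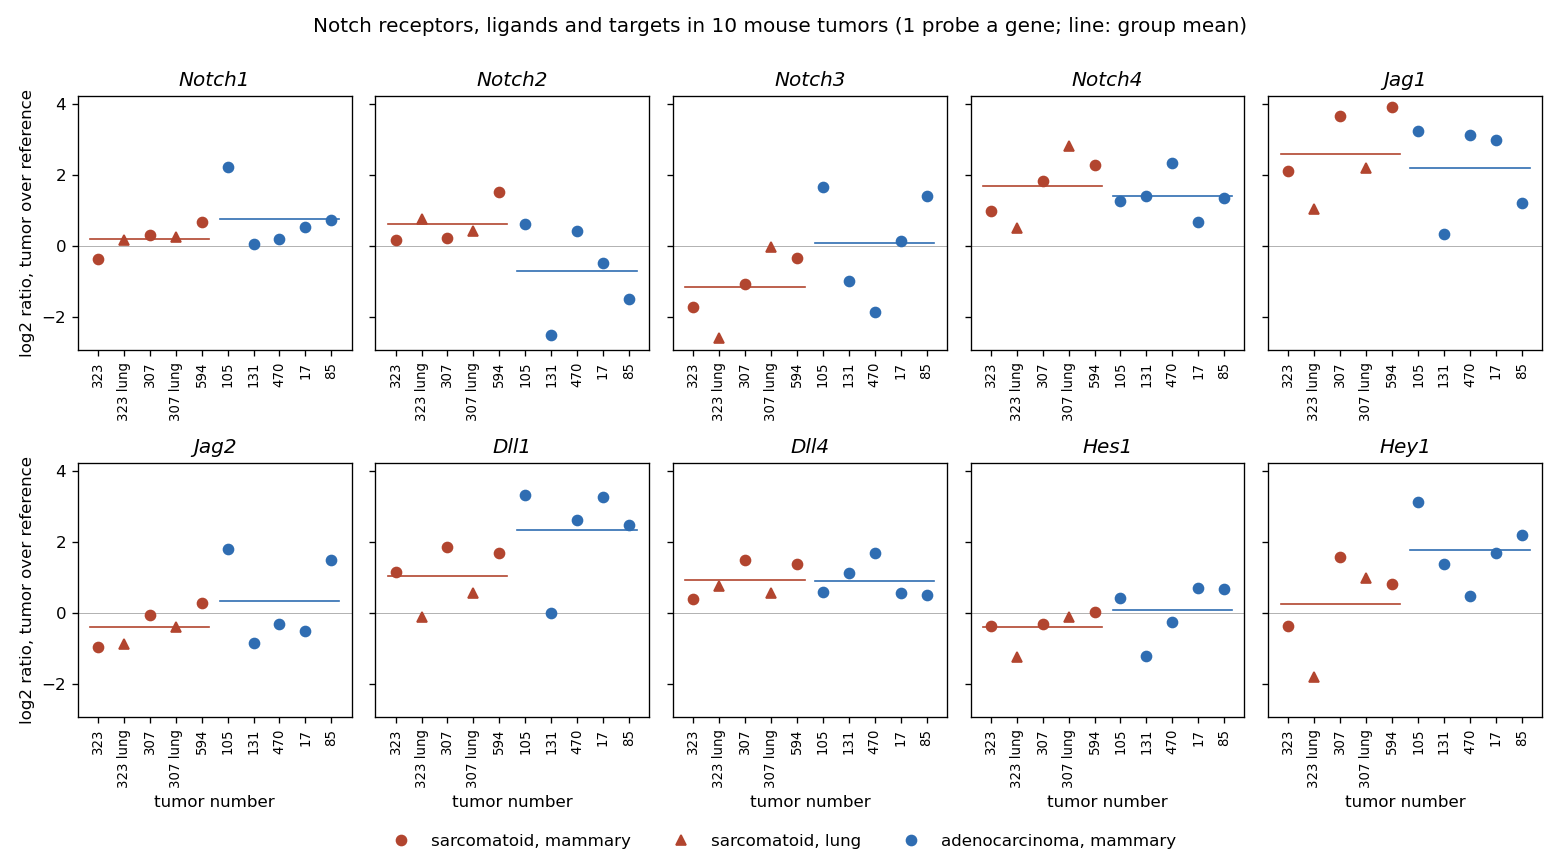
Log2 ratio of tumor over reference for the brightest probe of each of the 10 genes (y axis) in each of the 10 tumors (x axis, tumor number), with sarcomatoid tumors in red (triangles from lung), adenocarcinomas in blue and lines at the group means. The groups overlap for every gene, and Hey1 spans the widest range, from -1.78 to 3.14.

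The first question was whether Notch genes differ between sarcomatoid carcinomas and adenocarcinomas. None of the 14 probes passed an adjusted p of 0.05 in limma's test (smallest adjusted p = 0.461), and none of the 41174 probes did (0%). At an unadjusted p below 0.05, 2 of the 14 probes were higher in sarcomatoid tumors, both of Notch2, and 1 was lower, that of Hey1, against 4.75% higher and 5.09% lower among all probes. The groups did not overlap for 0 of the 14 probes, against 1.34% of all probes. Over 1 probe a gene, 4 of the 10 genes were higher and 6 lower in sarcomatoid tumors with a median difference of -0.51, while the median over all probes was 0. Without tumor 470, 632 of all probes passed the adjusted threshold but still 0 of the 14 did (smallest adjusted p = 0.24). In that fit, 2 of the 14 were higher at an unadjusted p below 0.05 (7.13% of all probes) and 2 lower (7.72% of all probes). These fits count each lung tumor and the mammary tumor it was grown from as separate, so the sarcomatoid group held fewer origins than arrays. Where nothing says that tumors came from separate mice, these p-values measure only the spread between the samples. In bulk tumors, fewer cells of a type and less RNA per cell cannot be told apart.

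Among the receptors, Notch1, a receptor known from mammary luminal cells, had values of -0.37, 0.17, 0.30, 0.26 and 0.67 in sarcomatoid tumors 323, 323 lung, 307, 307 lung and 594. In adenocarcinomas 105, 131, 470, 17 and 85, given in this order throughout, they were 2.24, 0.07, 0.21, 0.54 and 0.72. Tumor 105 lay far above the others, 85 was just above the highest sarcomatoid tumor, and the other 3 adenocarcinomas fell among the sarcomatoid tumors. The difference of sarcomatoid minus adenocarcinoma was -0.55 ± 0.39 (SE, n = 5 against 5; limma adjusted p = 0.708), and without tumor 105 it was -0.18 ± 0.21 (adjusted p = 0.866). On the minus strand, where the gene lies, the second Notch1 probe, A_52_P183088, ends on the base where the first begins (A_51_P508510, chr2:26466563-26466621, build mm7). It differed by -0.40 ± 0.30, or by -0.12 ± 0.18 without tumor 105.

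Notch2 was the member with the largest positive difference. Its brightest probe, A_52_P289213 (chr3:98021215-98021274, mm7), read 0.17, 0.77, 0.22, 0.43 and 1.52 in the sarcomatoid tumors. In the adenocarcinomas it read 0.63, -2.52, 0.41, -0.49 and -1.48. All 5 sarcomatoid tumors were above 0, whereas adenocarcinomas 131, 85 and 17 were below them all and 105 and 470 among them. The difference was 1.31 ± 0.58 (2.48-fold, 95% interval 0.01 to 2.61, adjusted p = 0.505 in limma). The 2 dimmer probes, A_51_P216397 and A_52_P448796, lie upstream on the same strand of chromosome 3 and gave smaller differences of 0.20 ± 0.08 (adjusted p = 0.461) and 0.27 ± 0.18 (adjusted p = 0.691). These 2 were well above background in red on 9 of 10 arrays each, and in green on 7 and 9. Within protocol version 2 the difference of the brightest probe was 0.35, and within version 3 it was 2.10. The larger value thus came from the version that held 131, 17 and 85, and whose only sarcomatoid tumors were from lung. Without tumor 131 it was 0.85 ± 0.46 (adjusted p = 0.708). With 1 value per tumor number it was 1.46 ± 0.74 (adjusted p = 0.72 in limma).

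Macrophage markers moved with Notch2 in part. The 9 markers, among them Csf1r, Adgre1 and Cd68, were all higher in sarcomatoid tumors (median difference 1.38, 7 of 9 at an unadjusted p below 0.05, 0 after adjustment). Their mean log2 ratio was between 3.02 and 3.84 in the sarcomatoid tumors, against 2.67 in 105, 1.49 in 131, 3.28 in 470, 2.22 in 17 and 1.39 in 85. The adenocarcinomas with the lowest marker means, 85 and 131, were also those with the lowest Notch2. Fibroblast markers sorted the adenocarcinomas in a like way, with means of -1.73 in 131, -1.88 in 17 and -1.53 in 85. They averaged 0.88 in 105 and 2.17 in 470. In sarcomatoid tumors the fibroblast mean was lowest in the lung tumor of 323 (-1.24), where Notch2 read 0.77. The genes whose values ran most like Notch2 over the 10 tumors, among 10712 named genes well above background, were Wdfy4 (Pearson r = 0.98), Cfp (r = 0.97) and Stk10 (r = 0.96). Cfp encodes properdin, a complement protein made by leukocytes. The part of macrophage or fibroblast RNA in the Notch2 difference was not tested.

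**Figure D2:**
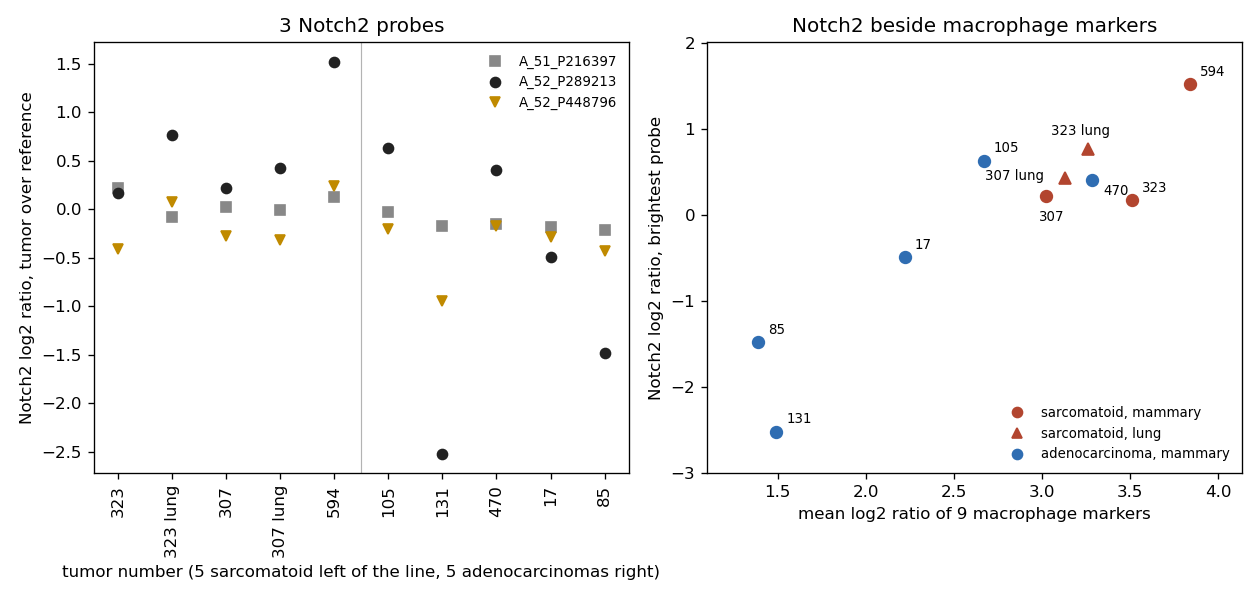
Left, log2 ratios of the 3 Notch2 probes (y axis) in the 10 tumors (x axis). Right, the brightest Notch2 probe (y axis) against the mean log2 ratio of 9 macrophage markers (x axis), 1 point per tumor, where tumors 131 and 85 lie lowest on both and 594 highest on both.

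Notch3, a receptor known from vascular mural cells, was lower on average in sarcomatoid tumors. It read -1.71, -2.60, -1.08, -0.02 and -0.35 in them, and 1.67, -0.98, -1.85, 0.14 and 1.42 in the adenocarcinomas. All sarcomatoid values were below 0, but adenocarcinomas 131 and 470 were as low. The difference was -1.23 ± 0.75 (95% interval -2.90 to 0.44, limma adjusted p = 0.65), -0.62 within version 2 and -1.51 within version 3. Without tumor 470 it was -1.71 ± 0.68 (adjusted p = 0.276). The 10 mural markers averaged -0.15 to 1.92 in sarcomatoid tumors and 0.38 to 1.83 in adenocarcinomas, and 470, one of the lowest for Notch3, was at 1.83. Of these markers 8 were lower in sarcomatoid tumors (median difference -0.44, 1 lower at an unadjusted p below 0.05, 0 after adjustment). The 2 higher were Pdgfrb (0.70) and Rgs5 (0.08). Among all probes 48.8% were higher. The part of mural cells in the Notch3 difference was not tested. Ephb3, a receptor for ephrins, ran most like Notch3 (r = 0.96).

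Notch4, the receptor best known from endothelium, read 0.99, 0.50, 1.84, 2.81 and 2.28 in sarcomatoid tumors and 1.28, 1.41, 2.34, 0.68 and 1.36 in adenocarcinomas. The lung tumors held both extremes, 307 the highest and 323 the lowest of all 10. The difference was 0.27 ± 0.45 (limma adjusted p = 0.896). The 12 endothelial markers had a median difference of -0.01, with 6 higher and 6 lower. Hoxb7 (r = 0.96) and Lox (r = 0.94), the latter a collagen cross-linking enzyme, ran most like Notch4.

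Among the ligands, Dll1 had the largest difference. It read 1.17, -0.09, 1.86, 0.57 and 1.71 in sarcomatoid tumors, and 3.33, 0, 2.62, 3.29 and 2.49 in adenocarcinomas. Of the adenocarcinomas 4 were above every sarcomatoid tumor, while 131 was below all but the lung tumor of 323. The difference was -1.30 ± 0.65 (2.47-fold lower, 95% interval -2.75 to 0.14, adjusted p = 0.557 in limma). It was -1.19 within version 2 and -1.69 within version 3, whose only sarcomatoid tumors were from lung. Among mammary tumors alone it was -0.77 ± 0.73 (adjusted p = 0.776). Without tumor 131 it was -1.89 ± 0.41 (adjusted p = 0.532).

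Jag2 read -0.95, -0.87, -0.06, -0.39 and 0.28 in sarcomatoid tumors and 1.82, -0.84, -0.29, -0.49 and 1.51 in adenocarcinomas. Only 105 and 85 stood above the sarcomatoid range, and the difference was -0.74 ± 0.54 (limma adjusted p = 0.725). It was -0.37 ± 0.48 without 105 and -0.44 ± 0.53 without 85. Jag1, a ligand that is broadly expressed, was well above the reference in most tumors by its brightest probe (A_52_P634090), at 2.10, 1.04, 3.66, 2.19 and 3.91 in sarcomatoid tumors. In adenocarcinomas it was at 3.25, 0.34, 3.13, 2.99 and 1.21. The groups overlapped over nearly their whole range (difference 0.39 ± 0.72, adjusted p = 0.908). The sign of that small difference turned without tumor 131 (-0.07). The other Jag1 probe (A_51_P280906) was well above background in red on 6 arrays and in green on 2, and differed by 0.07 ± 0.13.

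Dll4, the ligand of sprouting vessels, read 0.41, 0.78, 1.51, 0.57 and 1.40 in sarcomatoid tumors and 0.60, 1.14, 1.71, 0.58 and 0.51 in adenocarcinomas. The groups had nearly equal means (difference 0.03 ± 0.29, 95% interval -0.63 to 0.69, adjusted p = 0.985 in limma). Its reference signal was well above background on 5 of 10 arrays only. In the authors' deposited normalized table the same probe gave a wider spread, from 0.91 in 85 to 2.84 in 307, and a difference of 0.52 ± 0.43 (adjusted p = 0.759).

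The target Hey1 had the largest difference of all members. It read -0.35, -1.78, 1.60, 1.01 and 0.82 in sarcomatoid tumors. In adenocarcinomas it read 3.14, 1.39, 0.50, 1.69 and 2.20. Adenocarcinomas 105, 85 and 17 were above every sarcomatoid tumor, while 470 and 131 were among them. The difference was -1.52 ± 0.68 (2.87-fold lower, 95% interval -3.03 to -0.01, adjusted p = 0.504 in limma). It was -0.61 within version 2 and -2.15 within version 3, and -1.84 ± 0.68 (adjusted p = 0.24) without tumor 470. With 1 value per tumor number, it was -1.43 ± 0.70 (adjusted p = 0.712), and without the lung tumor of 323 it was -1.01 ± 0.55 (adjusted p = 0.639).

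Hes1 varied less and differed less. It read -0.35, -1.22, -0.29, -0.10 and 0.03 in sarcomatoid tumors and 0.43, -1.20, -0.23, 0.72 and 0.69 in adenocarcinomas. Adenocarcinomas 105, 17 and 85 were above all sarcomatoid tumors, as for Hey1, and 131 was as low as the lung tumor of 323. The difference was -0.47 ± 0.39 (limma adjusted p = 0.759). It was -0.79 ± 0.29 without 131 (adjusted p = 0.602), -0.26 ± 0.38 without the lung tumor of 323, and -0.31 without 17 and likewise without 85.

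**Figure D3:**
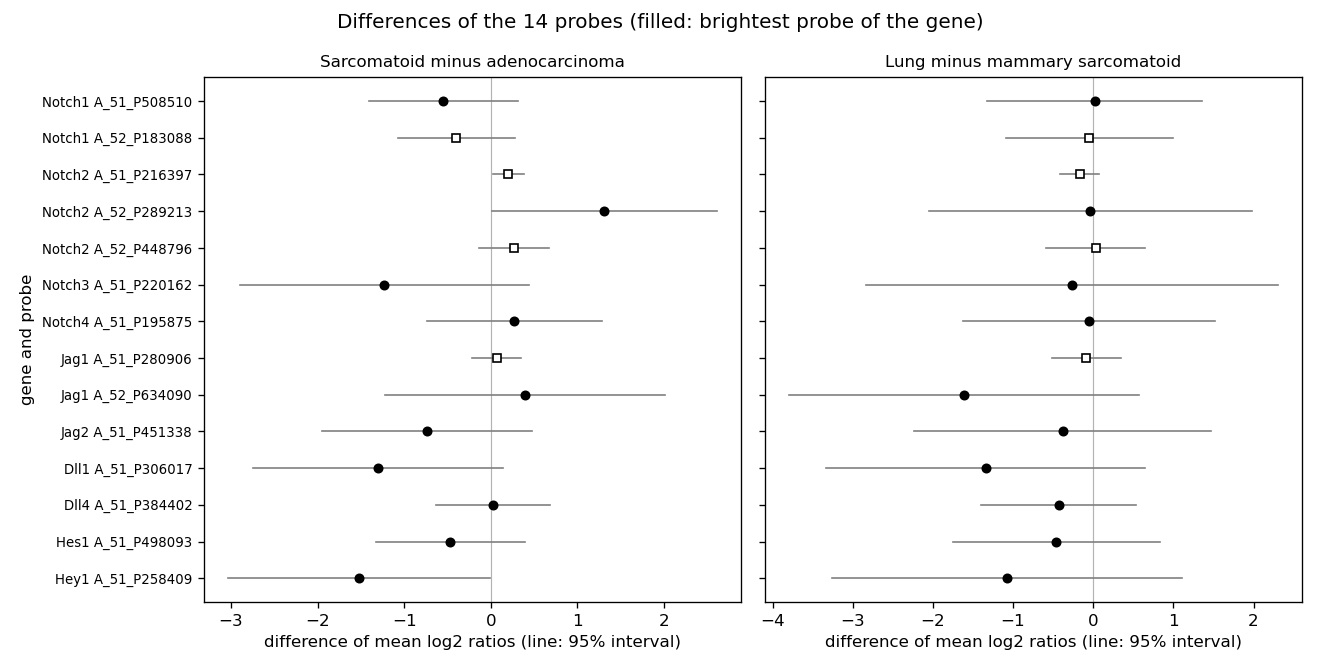
Difference of mean log2 ratios (x axis) for the 14 probes of the 10 genes (y axis), sarcomatoid minus adenocarcinoma at left and lung minus mammary sarcomatoid at right, with lines for the 95% intervals. At left the intervals of 2 Notch2 probes and of Hey1 leave out 0 by a narrow margin, and at right every interval spans 0. Every array counts separately, including lung tumors and the mammary tumors they came from.

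In the deposited normalized table, which the authors made with limma, all 14 probes were listed and the differences ran the same way. There Notch2 (A_52_P289213) differed by 1.43 ± 0.58 (adjusted p = 0.482), Hey1 by -1.65 ± 0.69 (adjusted p = 0.499), Notch3 by -1.33 ± 0.75 (adjusted p = 0.62), Dll1 by -1.28 ± 0.76 (adjusted p = 0.643) and Jag2 by -1.04 ± 0.66 (adjusted p = 0.671). Hey1 in that table was lowest in the lung tumor of 323 (-2.03) and highest in 105 (3.23).

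Some members ran together across tumors. Over the 45 pairs of members the Pearson r of the 10 log2 ratios had a median of 0.29, and 35 pairs were above 0. The highest was that of Notch3 and Hey1 (r = 0.88, Spearman rho = 0.88). With 1 value for each of the 8 tumor numbers it was 0.91, and with an array left out in turn it was between 0.83 and 0.92. In the 4 arrays of version 2 it was 0.89 and in the 5 of version 3 it was 0.91. Of the 10712 named genes, 24 (0.224%) were more like Notch3 than Hey1 was. Dll1 and Hes1 followed (r = 0.86, rho = 0.78), with 0.65 in version 2 and 0.93 in version 3, and then Notch1 with Jag2 (r = 0.85). Notch2 stood outside this set, at r = -0.18 with Notch3 and -0.31 with Hey1. Dll4 (-0.40 with Notch3 and -0.07 with Hey1) and Notch4 (0.10 and 0.20) also stood outside it. The pair of Notch3 and Dll4 had the lowest r of the 45. These values describe 10 arrays that were read as sharing a reference and hold 2 tumor pairs. The pairs of genes were picked for their r, and no test was made.

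**Figure D4:**
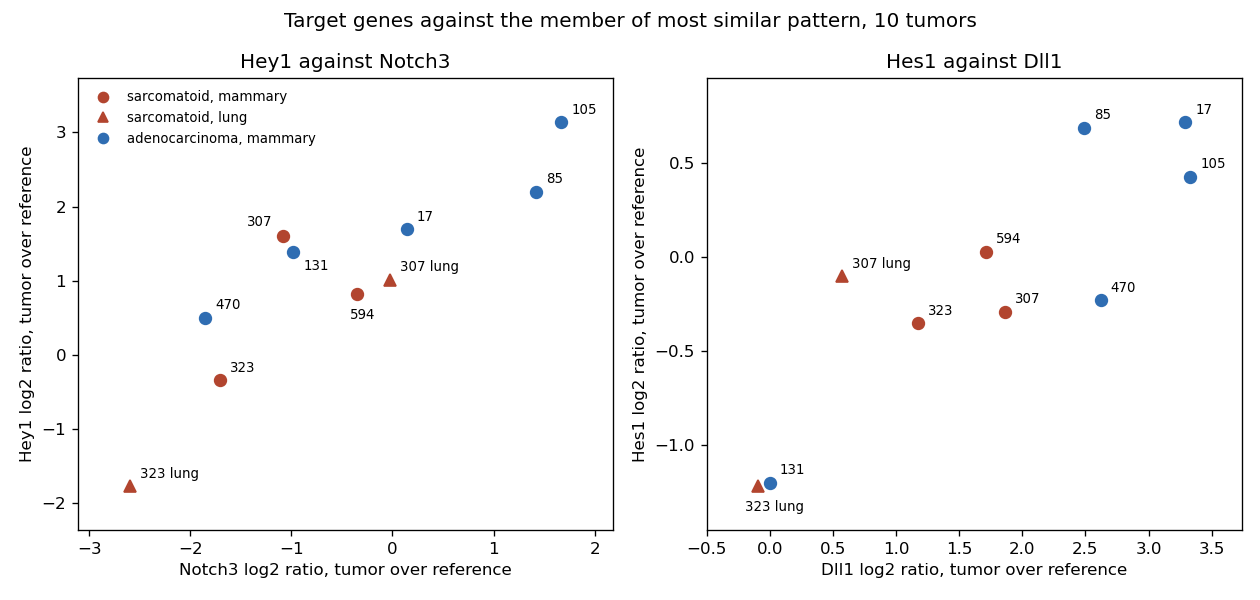
Log2 ratio of Hey1 (y axis) against Notch3 (x axis) at left, and of Hes1 against Dll1 at right, 1 labelled point per tumor. Hey1 follows Notch3 from the lung tumor of 323 at the lower left to 105 at the upper right, and tumors of both groups lie along the way.

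The second question was whether the lung tumors differ from the mammary sarcomatoid tumors. None of the 14 probes passed an adjusted p of 0.05 in limma (smallest adjusted p = 0.793), against 2 of all probes (0.00486%). At an unadjusted p below 0.05, 0 of the 14 were called, against 3.76% higher and 3.29% lower in lung among all probes. Over 1 probe a gene, 9 of 10 genes were lower in lung with a median difference of -0.41. The median over all probes was 0, and 49.2% of them were higher in lung. Of the 9, Notch2 (-0.04) and Notch4 (-0.05) hardly differed. In the deposited normalized table Notch1 (0.13), Notch2 (0.02), Notch4 (0.09) and Dll4 (0.21) were higher in lung, and the other members lower. The sites did not overlap, with lung lower, for 2 of the 14 probes (Dll1 and the Notch2 probe A_51_P216397), against 14.3% of all probes.

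The ligands Jag1 and Dll1 had the largest differences between sites. Jag1 was 1.04 and 2.19 in lung against 2.10, 3.66 and 3.91 in mammary tumors, a difference of -1.61 ± 0.96 (limma adjusted p = 0.793), or -1.04 ± 1.24 without the lung tumor of 323. Dll1 was -0.09 and 0.57 in lung against 1.17, 1.86 and 1.71, a difference of -1.34 ± 0.87 (adjusted p = 0.813). Neither passed the threshold in the fit over all 3 groups. The tumor numbers pair the sites, since each lung tumor was grown from cells of the mammary tumor of its number, and within the pairs Dll1 was lower in lung by 1.26 in 323 and by 1.29 in 307 (log2 differences -1.26 and -1.29). For Jag1 these were -1.06 and -1.48, and for Hey1 -1.43 and -0.59. A fit on the 4 paired arrays with tumor number as a block, which has 1 residual degree of freedom, gave -1.28 ± 0.17 for Dll1 (adjusted p = 0.265 in limma), -1.27 ± 0.20 for Jag1 (adjusted p = 0.27) and -1.01 ± 0.28 for Hey1 (adjusted p = 0.334). These were the 3 of 14 probes at an unadjusted p below 0.05, all lower in lung, against 6.28% of all probes, and 0 of all probes passed after adjustment.

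Other members went opposite ways in the 2 pairs. Notch3 was lower in the lung tumor of 323 (-0.89) and higher in that of 307 (1.05), and Notch4 likewise (-0.49 and 0.96). Dll4 did the reverse, higher by 0.37 in the lung tumor of 323 and lower in that of 307 (-0.94). With 1 pair of each these contrasts have no replicate. Luminal epithelial markers were lower in lung for 10 of 10 genes (median difference -2.85, 4 at an unadjusted p below 0.05). Basal markers were lower for 7 of 8 (median -1.09, 0 at that p). T cell markers were lower in lung for 7 of 8 (median -0.91, 4 at an unadjusted p below 0.05), with means of -1.12 to -0.62 in lung and 0.02 to 0.41 in mammary sarcomatoid tumors. Mural markers were lower for 8 of 10 (median -0.63, 2 at an unadjusted p below 0.05) and endothelial markers for 10 of 12 (median -0.64, 1 at that p). Macrophage markers were lower for 6 of 9 (median -0.21) and fibroblast markers for 4 of 8 (median -0.06), with 0 at that p. Among all probes 3.29% were lower at that p. None of these markers passed adjustment, and their part in the differences of the members was not tested. All mammary sarcomatoid tumors were read with other protocol versions than the lung tumors, so version and site cannot be told apart in this comparison without the adenocarcinomas. With the version as a term the Jag1 difference was -0.49 ± 1.09 (adjusted p = 0.997) and that of Dll1 -0.50 ± 1.32 (adjusted p = 0.997).

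The rest of the pathway was followed through 52 other genes, all measured. Of these, 4 were higher and 1 lower in sarcomatoid tumors at an unadjusted p below 0.05 and 0 after adjustment, with a median difference of 0.01. Among all probes 4.75% were higher and 5.09% lower at that p, so counts of this size are near the background. The 4 were the ligand-like gene Dlk2 (0.65 ± 0.17), the protease gene Adam17 (0.71 ± 0.21), Rbpj (0.75 ± 0.31) and the coactivator gene Maml3 (0.16 ± 0.07). The 1 lower was Hes6 (-0.43 ± 0.19). Adam17, which encodes an ADAM protease, was highest in the lung tumor of 307 (1.14) and lowest in adenocarcinoma 131 (-0.68). Its second probe differed by 0.62. The adjusted p of Adam17 in limma was 0.382. Adam10, the other ADAM protease gene in the list, ran the other way at -0.19 ± 0.14 (adjusted p = 0.712). Aph1b, a gamma-secretase subunit, came next to Rbpj by size at 0.74 ± 0.38 (adjusted p = 0.563).

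At the lower end stood Nrarp, itself a Notch target that dampens the pathway (-0.75 ± 0.40, adjusted p = 0.582 in limma), Myc (-0.59 ± 0.29, adjusted p = 0.553) and Dtx1 (-0.55 ± 0.26, adjusted p = 0.524). Nrarp was highest in 105 (3.07) and 17 (2.36), which were also among the highest for Dll1. Adenocarcinomas 470 and 85 were high for Dll1 too (2.62 and 2.49) but read 1.32 and 1.12 for Nrarp. Sarcomatoid tumors 307 and 594, with lower Dll1, read 1.64 and 1.55 for Nrarp. Of the 7 other Hes and Hey genes, 3 were well above background on all 10 arrays, and Heyl, a relative of Hey1, differed by -0.14 ± 0.54.

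Between sites, 2 of the 52 genes were higher in lung and 1 lower at an unadjusted p below 0.05, 0 after adjustment, with a median of 0.14. Among all probes 3.76% were higher and 3.29% lower, so these counts too are near the background. The 2 were Dtx3 (0.74 ± 0.24) and Dner (0.51 ± 0.21), and the 1 lower was Mib1, whose product helps ligands to be taken up (-0.70 ± 0.19, adjusted p = 0.551 in limma). The other Mib1 probes differed by -0.10 and -0.23. By size, Aph1a (1.06 ± 0.47) and the cell cycle inhibitor Cdkn1a (0.93 ± 0.46) were highest, and Aph1b (-0.72 ± 0.52) and Nrarp (-0.65 ± 0.56) were lowest beside Mib1.

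**Figure D5:**
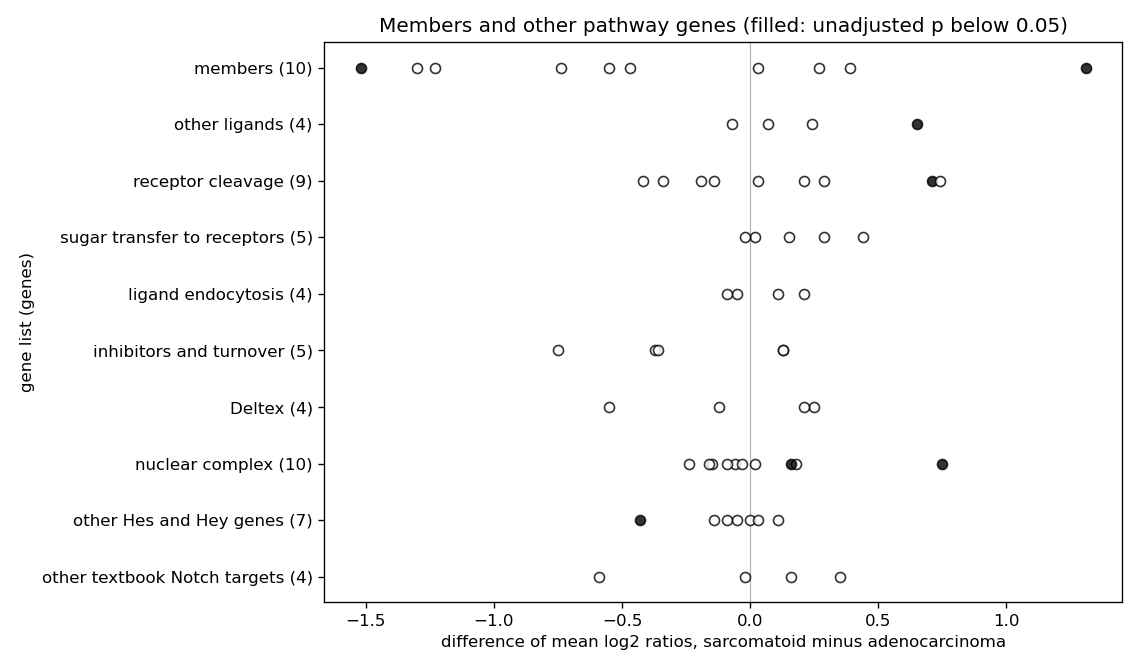
Difference of mean log2 ratios, sarcomatoid minus adenocarcinoma (x axis), for the brightest probe of each of the 10 members and the 52 other pathway genes, grouped by role (y axis), with filled points at an unadjusted p below 0.05. The members spread from -1.52 to 1.31 and the other genes from -0.75 to 0.75.

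The remaining members were most like genes of many kinds. Hey1 ran most like Auts2 (r = 0.96), Jag2 like Hnrnpa2b1 (r = 0.96), Dll1 like Polr2m (r = 0.94), Jag1 like 1500011B03Rik (r = 0.94), Notch1 like Jchain (r = 0.93) and Hes1 like Slc25a25 (r = 0.92). Slc25a25 was also second for Dll1 (r = 0.93). Jchain encodes the chain that joins secreted IgA and IgM and is a plasma cell gene. Over 10 arrays such values are the top of 10712 and carry no test.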

How the data were processed

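RNA of 10 tumors was measured on Agilent 2-colour arrays, and the authors deposited scanner files with the intensity of each spot in both channels, with flags, and a normalized log2 table made with limma, whose steps are not given in the sources used here. The gene names and mm7 coordinates are those of the scanner files. From the median intensities, the background was corrected with normexp (offset 50), each array was normalized by loess, outlier spots flagged by the scanner software (0.228% to 0.576% on an array) were dropped before replicate spots were averaged by probe (R 4.3.3, limma 3.58.1). The deposited scanner files also hold log10 ratios of red over green that Agilent's software had computed, which were turned into log2 for an alternative. No filter on dim probes was used. The number of arrays limits the precision.

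To check its direction, each of the 10 columns of the deposited log2 table was set against the red over green ratios of all arrays, and its own array always gave the highest r (0.869 to 0.926, against at most 0.744 with another), and no 2 arrays correlated below 0.373. Its column medians lay between -0.0531 and 0.0669, which leaves the centring step unknown. The deposited table served as an alternative for the tests.

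Sarcomatoid tumors were compared with adenocarcinomas with group as the only term, and the lung and mammary sites of the sarcomatoid tumors in a 3-group fit to all 10 arrays. Both used limma's moderated test, two-sided, with Benjamini-Hochberg adjustment over all 41174 probes. Counts by gene used each gene's brightest probe by mean signal. All member probes were named, together with the 3 highest and the 3 lowest other pathway genes of each comparison and the genes most like each member among those well above background in both channels on all arrays, up to 3 a member. Of these pathway genes, 1 is not reported here. The members and lists were chosen with earlier results of these data known. Dlk2, Adam10, Maml3, Hes6, Heyl, Dtx3 and Dner were named after their values were seen. The lists held 52 pathway genes and markers of endothelial, mural, luminal, basal, fibroblast, macrophage, T cell and lung epithelial cells. Fibroblast markers were higher in sarcomatoid tumors for 8 of 8 genes (median difference 0.60) and T cell markers for 5 of 8 (0.16), with 0 passing adjustment. The exon or UTR that a probe lies in was not analysed here.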

Additional observations from a re-analysis of the deposited data

Results flagged for a closer look

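Over the 14 probes and both groups, 28 sets of 5 tumors were searched for a tumor far from the rest by Dixon's test at its 95% critical value, which chance passes in about 1 of 20 sets. It found 1 set. Dll1 in adenocarcinoma 131 was at a log2 ratio of 0, while the other 4 adenocarcinomas lay between 2.49 and 3.33, a gap of 0.746 of the group's range.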

How the results depend on the processing

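No member probe passed an adjusted p of 0.05 in either comparison under any of the alternatives run, and of 558 values of single probes the sign turned in 50, none of them called. Between groups, the count over all probes was 0 as reported, 1 with median centring, 3 with slide as a random block, 3 with 1 value per tumor number, and 0 to 632 with an array left out, 632 being without tumor 470. Notch2, Notch3, Jag2, Dll1, Hes1, Hey1 and Notch1 kept their sign throughout, Dll4 (0.03) was -0.06 with median centring, and with an array left out Dll4 ran from -0.11 to 0.23, Notch4 from -0.01 to 0.57 and Jag1 from -0.07 to 0.78. Leaving out the lung array of a pair leaves 1 lung tumor, assumed to vary like the other groups.

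Between sites, the count over all probes was 2 as reported, 10 in the deposited table, 5 with Agilent's processed log ratios, 9 with scale normalization, 0 with protocol version as a term, 0 with tumor number as a fixed replicate block over the pairs, and 0 to 34 with an array left out, 34 being without the lung tumor of 307. Jag1 (brightest probe), Jag2 and Dll1 stayed lower in lung in every alternative. The differences that turned were, in the deposited table, Notch1 A_52_P183088 (0.01), Notch2 A_52_P289213 (0.02) and A_52_P448796 (-0.03), Notch4 (0.09) and Dll4 (0.21, against -0.43 as reported). With Agilent's log ratios they were 0.20, 0.03 and -0.09 for the same Notch1 and Notch2 probes, 0.04 for Notch2 A_51_P216397, 0.30 for Notch4 and 0.99 for Dll4. Notch1 A_52_P183088 and Notch2 A_52_P289213 were 0.02 and 0.01 with median centring, 0.06 and 0.13 with scale normalization, 0.31 and 1.75 with protocol version as a term, and 0.11 and 0.40 with the tumor number block. Notch2 A_52_P289213 was 0.10 with slide as a block. With scale normalization Notch2 A_52_P448796 was -0.13 and Notch4 1.20. With version as a term Notch4 was 0.25 and Jag1 A_51_P280906 0.09, and with the tumor number block Notch3 was 0.08 and Notch4 0.24. With an array left out, the ranges were -0.27 to 0.25 for Notch1 A_51_P508510, -0.17 to 0.11 for A_52_P183088, -0.27 to 0.40 for Notch2 A_52_P289213, -0.17 to 0.22 for A_52_P448796, -1.56 to 1.02 for Notch3, -1.21 to 1.10 for Notch4, -1.02 to 0.10 for Hes1 and -2.47 to 0.32 for Hey1 (-1.08 as reported, 0.32 being without the lung tumor of 323). The cause was not tested. Tumor number as a random replicate block (consensus correlation 0.06) left 0 probes called between groups. The likeness of Notch3 and Hey1, recomputed under settings chosen after seeing the data, stayed between 0.88 and 0.90 over 6 other sets of values.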
